A study of Solanum lycopersicum with 3 samples.

Results

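The genes described here are the 6 class III HD-ZIP genes of tomato (Solanum lycopersicum) and PHANTASTICA, which act in setting up the upper, or adaxial, side of the leaf and its vascular tissue. They were chosen by locus identifier, and all 7 were among the 21717 loci listed. RNA was measured in 3 libraries of leaf primordia, all from plants of the genotype slmp, grown as slmp-1 plants with days of 18 h light and 6 h dark. Each library pooled 15 primordia from the position of leaf number 5, staged as P5 on the plastochron scale of leaf age, from seedlings sprayed with water 1 h before collection (the mock treatment). SlMP is the tomato counterpart of MONOPTEROS, an auxin response factor. All libraries carry the slmp genotype, and no wild-type library was analysed here, so the values describe the mutant primordium and no effect of the mutation. The labels do not say whether the libraries came from separate sets of plants, so the spread between them may be technical.

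Class III HD-ZIP proteins are homeodomain leucine-zipper transcription factors with a lipid-binding START domain. In Arabidopsis they are active on the adaxial side of young leaves, in the meristem and in developing vascular strands, and the microRNAs miR165 and miR166 direct cleavage of their transcripts on the lower, or abaxial, side. REVOLUTA is the member best known for its part in meristem formation and in adaxial and vascular patterning, and in Arabidopsis MONOPTEROS activates the class III gene ATHB8 in the cells that become veins. PHANTASTICA, first described in Antirrhinum, is a MYB transcription factor whose Arabidopsis counterpart is AS1, a repressor of KNOX genes in leaf primordia. In tomato, reduced PHANTASTICA function alters the adaxial domain and with it the placement of leaflets.

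Values are the deposited read counts divided by 1 factor per library and are called scaled values here. The libraries read the 3′ ends of transcripts, so each transcript gives about 1 fragment whatever its length, and levels of different genes are compared without division by length. Counts also depend on how well the 3′ end of each gene is annotated and mapped, which was not tested. Reads in no annotated feature made up 21.2% to 22.7% of the scaled total, and reads of low alignment quality 21.4% to 25.6%. Orders and ratios of genes below are therefore those of scaled values, which may differ from those of transcripts. The names REVOLUTA for Solyc11g069470 and PHANTASTICA for Solyc09g010840, and the family of the other 5 loci, come from the list that chose the genes. The reference table of gene symbols paired 0 of the listed identifiers with a name, so membership could not be checked and no orthologue is assigned to the other 5 loci. The totals over all loci were 2603014, 2673501 and 2693549 scaled units in replicates 1, 2 and 3. They came from 2746410, 2574146 and 2499843 count steps, where a step is the scaled value of 1 count.

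All 7 genes were expressed in every library. Each reached at least 10 scaled units in all 3 libraries, a level that 68.7% of all listed loci reached; 91.1% of loci were above 0 in each library, as were all 7 genes. With a minimum of 20 units in each library, 6 of the 7 remained, against 55% of all loci, and Solyc08g066500 was the gene that dropped out. The median of the 7 means was 172.96 scaled units, beside 33.3 for all loci, and 6 of the 7 means lay above the latter. A mean of 100 or more was reached by 5 of the 7 genes and by 22.2% of all loci.

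PHANTASTICA had the highest level of the 7. Its scaled values were 401.9, 546.3 and 396.5 in replicates 1, 2 and 3, a mean of 448.2 ± 84.98 (SD, n = 3). Replicate 2 stood above the other libraries, which were nearly equal. The exact 95% Poisson intervals, which cover counting error only, were 364.5 to 441.996 in replicate 1, 500.6 to 595.05 in replicate 2 and 357.03 to 439.2 in replicate 3, so replicate 2 did not overlap either of the others. PHANTASTICA ranked 1013 of all loci by mean, at percentile 95.3.

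The 3 highest class III HD-ZIP genes were Solyc03g120910, Solyc12g044410 and Solyc02g024070. Solyc03g120910 had 272.02, 301.2 and 217.7 scaled units in replicates 1, 2 and 3, a mean of 263.6 ± 42.4 (SD, n = 3). Solyc12g044410 had 219.9, 278.3 and 255.4 units, a mean of 251.2 ± 29.5. These genes changed places between libraries: Solyc03g120910 was the higher in replicates 1 and 2 and Solyc12g044410 in replicate 3. Their ranges overlapped, and the ratio of the former to the latter was 1.24, 1.08 and 0.852, so their order cannot be told from these libraries. Solyc02g024070 followed with 177.2, 199.4 and 142.2 units, a mean of 172.96 ± 28.8, and its range lay wholly below those of the pair above it.

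REVOLUTA held a middle place in the family and had the smallest spread of the 7 genes over the 3 libraries, although without replicate 2 both PHANTASTICA and Solyc02g069830 had a smaller one. Its scaled values were 133.6, 140.2 and 145.5 in replicates 1, 2 and 3, a mean of 139.8 ± 5.92 (SD, n = 3), at percentile 83.7 of all loci. The highest library was only 1.09 times the lowest, and the Poisson intervals of all 3 libraries overlapped. REVOLUTA lay below Solyc02g024070 in replicates 1 and 2 and just above it in replicate 3, at ratios of Solyc02g024070 to REVOLUTA of 1.33, 1.42 and 0.978. Neither gene could therefore be placed above the other.

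The remaining class III genes were lower. Solyc02g069830 had 83.4, 98.7 and 77.6 scaled units, a mean of 86.6 ± 10.9 (SD, n = 3), and lay below REVOLUTA in every library without overlap of their ranges. Solyc08g066500 was the lowest of the family, at 17.1, 25.96 and 19.4 units and a mean of 20.8 ± 4.62. Its values rest on 18, 25 and 18 counts, its mean lay below the median of all loci, at percentile 38.4, and its Poisson intervals ran from 10.1 at the lowest bound to 38.3 at the highest. It was nevertheless above the level of 3 counts, which is 2.84, 3.12 and 3.23 scaled units in replicates 1, 2 and 3.

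**Figure D1:**
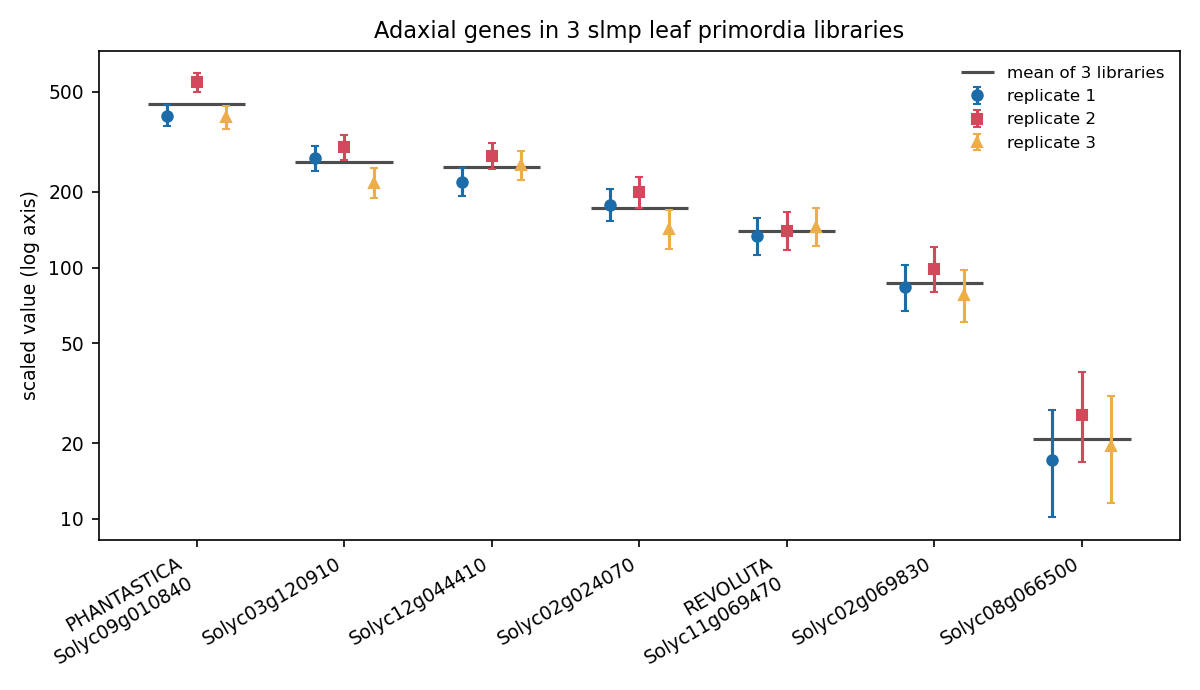
Scaled value (log axis) of each adaxial gene in the 3 slmp libraries, ordered by mean; bars on the points are exact 95% Poisson intervals of the counts and the grey line is the mean of the 3 libraries. PHANTASTICA lies at 396.5 to 546.3, REVOLUTA at 133.6 to 145.5 and Solyc08g066500 at 17.1 to 25.96.

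The order of the 7 genes was largely the same in each library. Of the 21 pairs of genes, 19 kept their order in all 3 libraries, and the same 19 pairs had ranges that did not overlap. How many pairs of other loci do so was not computed. With means from 20.8 to 448.2 units, the count does not set the family apart. The pairs that did overlap were the ones described above, Solyc03g120910 with Solyc12g044410 and Solyc02g024070 with REVOLUTA. These differences are given without a test, since the exact 2-sided sign-flip permutation test over 3 libraries cannot give a p below 0.25.

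The class III HD-ZIP family as a whole amounted to 903.2, 1043.8 and 857.7 scaled units in replicates 1, 2 and 3, a mean of 934.9 ± 97.01 (SD, n = 3). Most of this signal came from a few members. Solyc03g120910 gave 28.1% ± 2.45 of the family sum, Solyc12g044410 26.9% ± 2.72 and Solyc02g024070 18.4% ± 1.63, together 73.5% ± 1.54. REVOLUTA gave 15.1% ± 1.78 and Solyc02g069830 9.24% ± 0.204, while Solyc08g066500 gave 2.21% ± 0.302. The share of Solyc02g069830 was the same to within 0.408 percentage points over the libraries. Its Poisson interval in replicate 1 ran from 66.9 to 102.8 units, on 88 counts, so such closeness is finer than the depth can resolve. In percentage points the share of Solyc12g044410 moved the most, by 5.43, from 24.3% in replicate 1 to 29.8% in replicate 3.

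**Figure D2:**
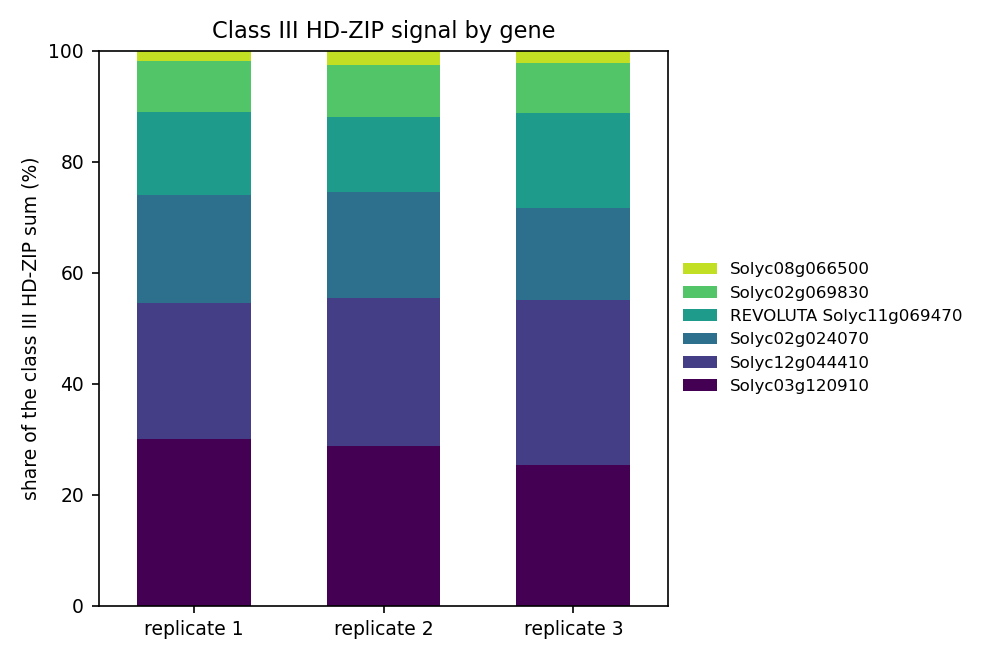
Share of the summed class III HD-ZIP signal (%, from scaled values) given by each of the 6 genes in each library. The 3 lowest segments, Solyc03g120910, Solyc12g044410 and Solyc02g024070, make up 71.7% to 74.6% of each bar, and REVOLUTA 13.4% to 16.96%.

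Set against PHANTASTICA, the summed class III signal was 2.25, 1.91 and 2.16 times as high in replicates 1, 2 and 3, a ratio of 2.11 ± 0.175 (SD, n = 3). PHANTASTICA alone was higher than any single class III gene in every library. The nearest class III gene was Solyc03g120910, at ratios of PHANTASTICA to it of 1.48, 1.81 and 1.82. Against REVOLUTA the ratios were 3.01, 3.896 and 2.73.

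The libraries did not shift all members alike. Replicate 2 gave the highest value for 6 of the 7 genes, a count made after the values were seen; among detected loci 36.2% had their highest value in replicate 2, and of the loci averaging at least 100 units 42.4% did. The exception was REVOLUTA, highest in replicate 3. The median deviation of the 7 genes in replicate 2 from their own means was 0.20 on the log2(value + 1) scale. It was 0.01 for all detected loci. For loci averaging at least 100 units the median was 0.04 and the upper quartile 0.19. For 3 genes the difference went beyond the counting intervals: PHANTASTICA was 1.36 times as high in replicate 2 as in replicate 1 and 1.38 times as high as in replicate 3, and Solyc03g120910 and Solyc02g024070 were 1.38 and 1.40 times as high in replicate 2 as in replicate 3. For the other 4 genes all counting intervals overlapped. The share of all loci with intervals apart was not computed, so these counts do not set the members apart. The SDs of PHANTASTICA, Solyc03g120910 and Solyc02g024070 lay at percentiles 60.2, 53.7 and 54.2 of loci of like level. The same 6 genes were highest in replicate 2 when the libraries were given equal locus totals and when median-of-ratios factors were recomputed.

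**Figure D3:**
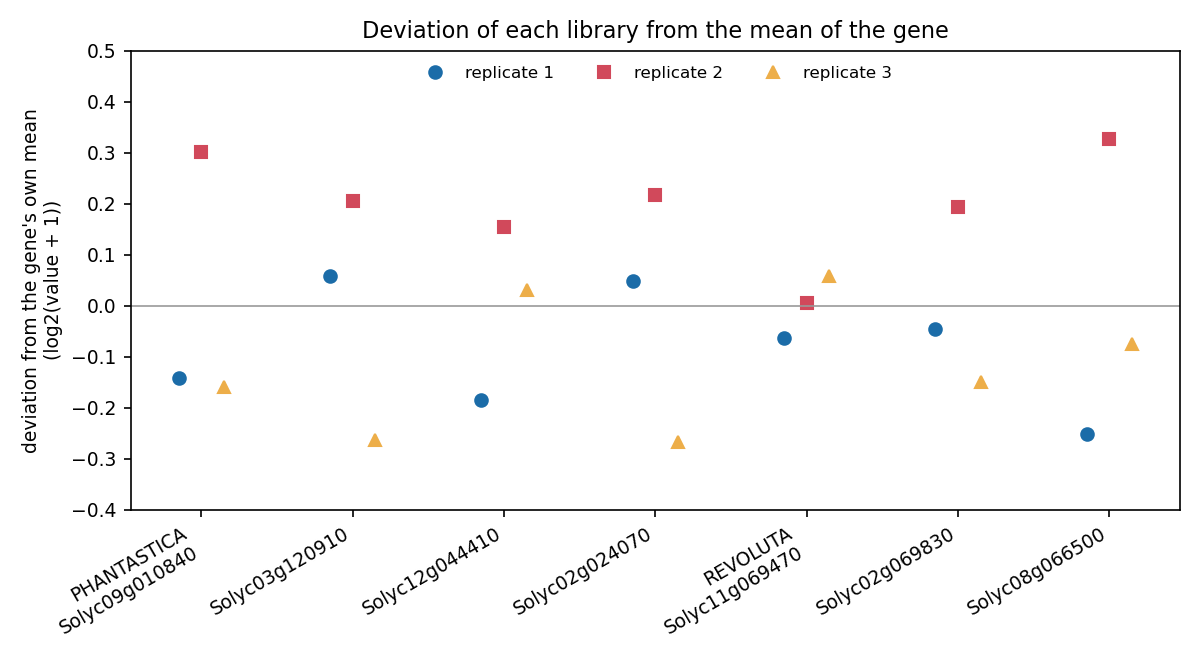
Deviation of each library from the gene's own mean over the 3 libraries, on the log2(value + 1) scale, for each adaxial gene. Replicate 2 (squares) is the highest point for 6 genes, with deviations from 0.15 to 0.33, and lies at 0.01 for REVOLUTA.

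Other tissue lists also differed in replicate 2. Of 4 loci recorded for the shoot meristem, 2 were listed, at 4.15 to 15.2 scaled units, and both were lowest in replicate 2. Neither reached 10 units in all 3 libraries, and the value of 4.15 lay close to the level of 3 counts, 3.12 units in replicate 2. Their place in replicate 2 is therefore uncertain. Whether these 2 loci are active only in the meristem was not checked, so their values do not measure meristem tissue. All 3 loci recorded for green leaf tissue were lowest in replicate 2 as well. So were 33.3% of all detected loci and 27.6% of those averaging at least 100 units, shares that do not cover the meristem loci. The green leaf sum was 10566, 7292 and 13724 scaled units in replicates 1, 2 and 3. Both loci recorded for young leaf and boundary regulators were highest in replicate 2, as were 36.2% of all detected loci. Their sums were 363.95, 612.8 and 385.7 units and followed mainly 1 locus, Solyc07g062680, at 283.4, 527.6 and 336.2 units in replicates 1, 2 and 3. Solyc07g062840 had 80.6, 85.2 and 49.6 units, nearly level between replicates 1 and 2. Of the 4 loci recorded for floral organs none is among the listed loci, and they are not analysed here. The part of these differences in the levels of the adaxial genes was not tested. In whole primordia a smaller number of cells of a type and less RNA per cell cannot be told apart.

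The spread of most members was like that of other loci at their level. The SD over the 3 libraries on the log2(value + 1) scale was 0.26 for PHANTASTICA, at percentile 60.2 of the 1638 loci within 2-fold of its mean. It was 0.24 for Solyc03g120910 and 0.25 for Solyc02g024070, at percentiles 53.7 and 54.2 of loci of like level. Solyc12g044410, at 0.17, and Solyc02g069830, at 0.18, lay at percentiles 35.02 and 29.3, and Solyc08g066500, at 0.30, at percentile 36.9. The median SD of the 7 genes was 0.24, and it was 0.12 without replicate 2. Single libraries decided several of these SDs. Without replicate 2 the SD fell to 0.01 for PHANTASTICA, 0.07 for Solyc02g069830 and 0.12 for Solyc08g066500. Without replicate 3 it was 0.10 for Solyc03g120910 and 0.12 for Solyc02g024070, and without replicate 1 it was 0.09 for Solyc12g044410.

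REVOLUTA stood at the low end of this range. Its SD of 0.06 lay at percentile 5.97 of the 4985 loci of like level, whose median SD was 0.24. It was 0.04 without replicate 1, 0.05 without replicate 3 and 0.04 with equal locus totals. Without replicate 2 it was 0.09, above the 0.01 of PHANTASTICA and the 0.07 of Solyc02g069830, so its place as the smallest of the 7 rests on replicate 2. Of the loci averaging at least 100 units, 6.15% had a highest-to-lowest ratio at most that of REVOLUTA. REVOLUTA was singled out as the smallest of 7 SDs in these same data, so a low percentile and share follow in part from that choice. On the scale of the values themselves, the SD of 5.92 was 0.496 times the SD of 11.9 that counting alone gives at this level, and thus smaller than the counting error. For PHANTASTICA the SD was 3.97 times the counting SD. For Solyc02g069830 and Solyc08g066500 it was 1.16 and 1.002 times, so that spread beyond counting was not detectable for these genes at this depth.

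**Figure D4:**
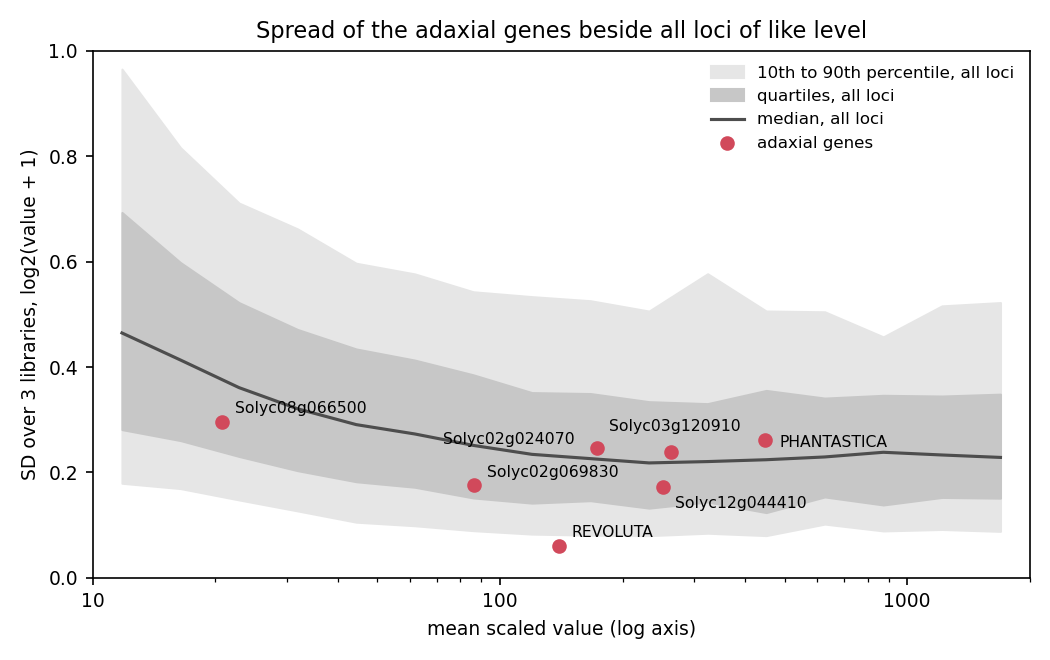
SD over the 3 libraries of log2(value + 1) against mean scaled value (log axis) for the 7 adaxial genes (points), with the median, quartiles and 10th to 90th percentiles of all loci by level. REVOLUTA, at an SD of 0.06, lies below the 10th percentile, while the other 6 genes, at 0.17 to 0.30, lie within the quartiles.

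Ratios between members varied less than 1.5-fold over the libraries for all 21 pairs. The share of pairs of other loci within this limit was not computed, so the count does not set the family apart. Solyc03g120910 was 1.53, 1.51 and 1.53 times as high as Solyc02g024070 in replicates 1, 2 and 3, a ratio of 1.53 ± 0.013 (SD, n = 3). This ratio had the smallest highest-to-lowest factor of the 21, at 1.02. The counting error of each ratio was 0.144, 0.141 and 0.171, larger than the differences between libraries, so such closeness is finer than the depth can resolve and does not set this pair apart. Over all 21 ratios the median highest-to-lowest factor was 1.26 and the largest was 1.45, between Solyc02g024070 and REVOLUTA. The 6 ratios that involve REVOLUTA had a median factor of 1.43, and the 15 others had 1.23. Those 6 ratios share 1 gene, whose library pattern was described above, so this difference is not a separate result.

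Other genes of leaf polarity were described from loci recorded under family names, whose membership the sources used here do not check. YABBY proteins are transcription factors of the abaxial side and of blade growth. Of 9 YABBY loci recorded, 6 were listed and all 6 were detected, with means from 64.1 to 501.99 scaled units and a median of 137.4, beside a median of 156.4 for the 6 class III HD-ZIP genes. The highest YABBY locus had 533.6, 592.001 and 380.4 units in replicates 1, 2 and 3, a level whose range overlaps that of PHANTASTICA. Of the 6 listed YABBY loci, 3 were highest and 2 were lowest in replicate 2. The YABBY sum was 1247, 1188 and 987 units in replicates 1, 2 and 3, highest in replicate 1, and the class III sum was 0.724, 0.878 and 0.869 times that sum, a ratio of 0.824 ± 0.0865 (SD, n = 3). Since 3 recorded YABBY loci are not analysed here, this ratio does not stand for the whole family.

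Auxin response factors 3 and 4 specify abaxial identity and are held in check by trans-acting small interfering RNAs, which are made by a set of RNA-processing proteins. Both recorded loci of these factors were detected, at 299.5, 319.9 and 257.5 scaled units for the higher and 132.7, 159.9 and 126.1 for the lower. Both were highest in replicate 2. The class III sum was 2.09, 2.18 and 2.24 times their sum, a ratio of 2.17 ± 0.0734 (SD, n = 3), and PHANTASTICA was 0.93, 1.14 and 1.03 times their sum.

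The 4 loci recorded for the small RNA machinery were all detected, with means from 11.9 to 292.5 scaled units and a median of 175.2. Of these, 3 were highest in replicate 2. The lowest locus had 11.4, 13.5 and 10.8 units, below Solyc08g066500 in each library. The highest had 356.4 and 357.3 units in replicates 1 and 2 and 163.8 in replicate 3.

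**Figure D5:**
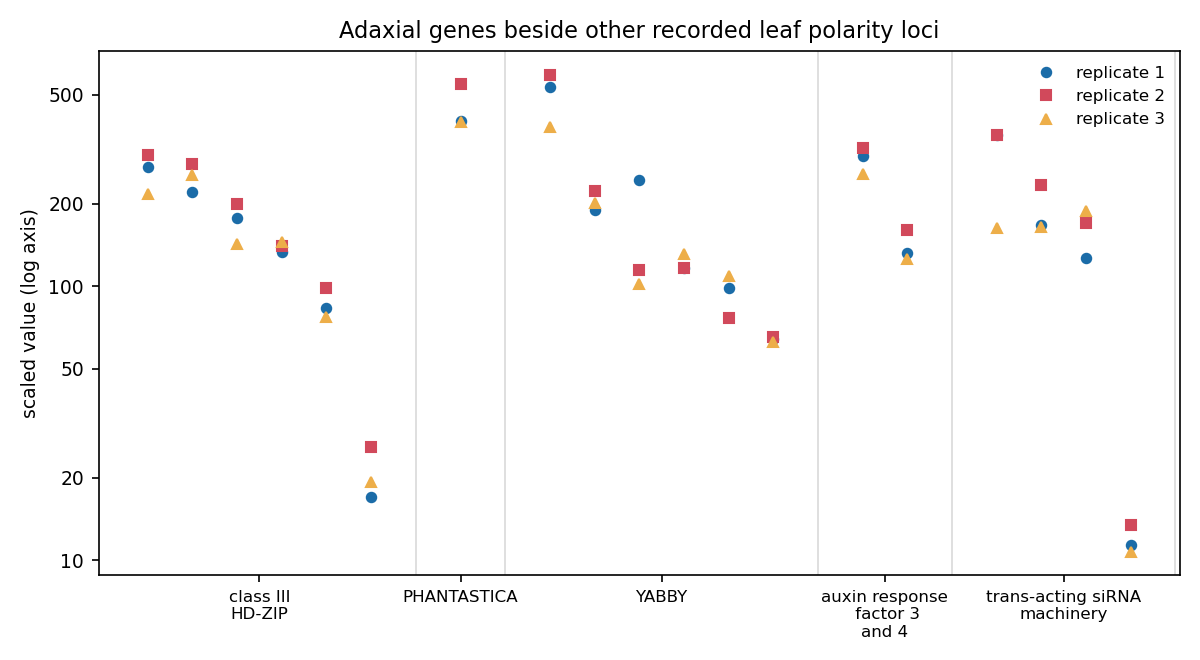
Scaled values (log axis) by library for the class III HD-ZIP genes and PHANTASTICA beside the loci recorded for YABBY proteins, auxin response factors 3 and 4 and the trans-acting siRNA machinery; each column of points is 1 locus, ordered by mean within its list. The class III genes span 17.1 to 301.2 units and the listed YABBY loci 62.5 to 592.001.

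Of the 28 loci next to the 7 genes by identifier, up to 2 on each side, none matched its gene to within 3% in every library. Such a match would appear only where nearly all reads of both loci were shared. Partly shared reads, antisense reads and reads shared between paralogues were not tested, and it is not known whether the counting used strand.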

How the data were processed

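Per the labels' protocols, libraries were made with a 3′ QuantSeq kit. Per the submitters' processing notes, the tools were Bowtie2, HTSeq and DESeq2; neither their versions nor the genome build and annotation are stated in the labels or the file. The deposited signal values were whole multiples of 1 step per library (within 0.001 of a step), the form of counts divided by 1 factor. No value of 1 step occurred, so no count model was fitted across loci. The Poisson intervals and counting errors still treat the steps as counts. The 3 summary rows of the counting program, 45.3% to 50.6% of the scaled total, were left out. Means and SDs, percentiles among all loci, SDs of log2(value + 1) and exact Poisson intervals were computed with SciPy 1.17.1, pandas 2.3.3 and numpy 2.4.6 in Python 3.11.15. The recovery of steps, log2 changes, SDs of log2(value + 1) and median-of-ratios factors were tested on simulated data. The Poisson intervals were not. Intervals assume that reads are independent molecules, which reads without molecular identifiers are not. The 1 group allows no test between conditions. The members and lists were chosen with earlier results of these data known; all 7 members are named. Alternatives covered scaling, pseudocount, detection minimum and leaving out each library.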

Additional observations from a re-analysis of the deposited data

How the results depend on the processing

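Across the alternatives, 135 of 145 recomputed values did not move: levels, ratios and percentiles were held to the SD between replicates, and counts and SDs to a factor of 1.5. Many of these could not have moved. Leaving out 1 of 3 libraries cannot shift the mean of a gene, sum or ratio by as much as its SD. Scaling by library cannot change the class III to PHANTASTICA ratio. The count of 135 is therefore no measure of stability. The median SD of the 7 genes was 0.24 and lay between 0.12 and 0.28 with 1 replicate removed, where it rests on 2 libraries only. The median percentile of the 7 genes was 87.0 among all loci and 81.1 among detected loci only, since that comparison leaves out low loci. The other 8 values that moved were SDs of single genes, such as PHANTASTICA at 0.01 without replicate 2 and REVOLUTA at 0.04 with equal locus totals. Without replicate 1, Solyc12g044410 stood above Solyc03g120910 by mean. No paired analysis was possible because the study's 3 libraries form a single group. The recomputed median-of-ratios factors, the count of genes highest in replicate 2 and the class III to PHANTASTICA ratio without Solyc08g066500, which was 2.06, were chosen after seeing the data. Solyc08g066500 is limited by depth, with 18 to 25 counts per library.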
